A study of Homo sapiens with 12 samples.

Results

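The translation initiation factors are the proteins that bring the ribosome to the start codon of an mRNA. Their genes were taken here by symbol, as every protein-coding gene whose symbol opens with EIF1, EIF2, EIF3, EIF4, EIF5 or EIF6, leaving out the EIF2AK kinases and EIF4EBP1, and the rule used no measured value. It found 51 genes among 64252 gene IDs, and 46 of the 51 had enough counts to be tested. The other 5 were EIF1AY, EIF2S3B, EIF3CL, EIF4E1B and EIF4EBP3. The mRNA of MDA-MB-231, a cell line from a human breast cancer of the triple-negative class, was selected by its poly(A) tail and sequenced. The cells of all 12 libraries were transfected by lipofectamine with a Dicer plasmid, Dicer being the ribonuclease that cuts microRNA precursors. The plasmid carried Dicer with mutation 1, mutation 2 or mutation 3, numbered but not named in the labels, or wild-type Dicer, in 3 libraries each. Untransfected cells and cells with an empty plasmid were not analysed here, and the cells' own Dicer gene is not described in the labels.

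Initiation in human cells starts with a small ribosomal subunit that carries eIF1, eIF1A, eIF3, eIF5 and the eIF2 complex loaded with GTP and the initiator tRNA. The cap-binding complex eIF4F, made of eIF4E, the scaffold eIF4G and the helicase eIF4A, recruits this subunit to the capped end of an mRNA, from which it scans for a start codon. At the start codon eIF5 stimulates GTP hydrolysis by eIF2, eIF5B joins the large subunit, and eIF2B reloads eIF2 with GTP. Phosphorylation of eIF2 blocks eIF2B, and the eIF4E-binding proteins block eIF4F, so both steps are control points that are often altered in tumours.

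Library totals ran from 13507341 to 17078273 counts. The wild-type library numbered 1 stood apart from the other two wild-type libraries. Of the 46 members tested, 11 differed by more than 1.5-fold between wild-type replicates 1 and 2 and 9 between replicates 1 and 3, against 37.8% and 37.9% of all genes tested. No member differed that much between 2 libraries of any mutation or between wild-type replicates 2 and 3. In all these ratios 0.5 CPM was added to each level. Without that addition EIF4E3 and EIF5AL1, both at low levels, exceeded 1.5-fold with mutation 3, at 0.188 to 0.392 and 0.296 to 0.563 CPM. The median coefficient of variation of the members was 3.35% for mutation 1, 2.03% for mutation 2, 2.65% for mutation 3 and 14.3% for wild type. Each result against wild type is therefore also given without replicate 1 or against replicate 1 alone where that changes whether it passed or its direction among those that passed. Against replicate 1 alone wild type is a single library, so the spread in that fit comes from the mutant libraries only. A pass there takes no account of the spread among wild-type libraries. Of the markers of the cell line, VIM, CD44, CAV1, AXL, TGFBI and KRT18 were at 226 CPM or more in every library. Of 6 luminal genes, the oestrogen receptor gene ESR1 was at 0.653 CPM or less, the progesterone receptor gene PGR at 0.0741 or less and FOXA1 at 0.131 or less, while ERBB2 ran from 68.4 to 112 CPM, GATA3 from 7.71 to 29.97 and EPCAM from 4.59 to 33.3. Of the markers of other cell types given here, CD3E was at 0 in all libraries and PTPRC, ALB and HBB at 0.168 CPM or less. CD14 ran from 3.43 to 27.0 CPM, and the endothelial gene PECAM1 was at 0.915 CPM or less in all mutant libraries and at 2.76 to 17.1 CPM in the wild-type libraries, and the part of either in the results was not tested.

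The transcript starts of 10 members are shown because the mRNAs of the translation machinery often begin with a C followed by pyrimidines, the 5′ terminal oligopyrimidine tract through which the kinase mTOR and the RNA-binding protein LARP1 control their translation. Each line gives the 30 bases before the start and the 15 bases from it, from RefSeq on GRCh38.p14, 5′ to 3′ on the gene's own strand, with a tract of a C and at least 4 more pyrimidines in capitals. The first 5 genes have such a tract, and all were higher with mutation 1 than with wild type. For EIF3F the rise was only 0.14 on the log2 scale, and its direction turned with scaling by library totals (-0.07). Of the tested members with a tract that are not shown, EIF2D and EIF3M were also higher with mutation 1 and EIF3D and EIF3K were lower. The other 5, shown for contrast, are EIF1, EIF5, EIF2S1 and EIF6, which differed from wild type by at least 2-fold with mutation 1, and EIF5A2, which passed in no comparison.
EIF4B (chr12:53006426-53006470, plus strand): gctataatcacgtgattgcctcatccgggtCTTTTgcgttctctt
EIF2A (chr3:150546757-150546801, plus strand): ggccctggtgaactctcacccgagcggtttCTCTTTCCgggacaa
EIF3F (chr11:7987307-7987351, plus strand): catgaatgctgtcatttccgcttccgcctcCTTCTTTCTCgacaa
EIF4A2 (chr3:186783547-186783591, plus strand): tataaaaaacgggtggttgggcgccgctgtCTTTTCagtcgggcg
EIF2S3 (chrX:24054926-24054970, plus strand): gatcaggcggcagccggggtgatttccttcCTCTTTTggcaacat
EIF1 (chr17:41688855-41688899, plus strand): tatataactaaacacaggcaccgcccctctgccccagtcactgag
EIF5 (chr14:103334207-103334251, plus strand): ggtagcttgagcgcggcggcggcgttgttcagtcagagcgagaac
EIF2S1 (chr14:67360298-67360342, plus strand): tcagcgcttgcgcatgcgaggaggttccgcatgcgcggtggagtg
EIF6 (chr20:35284703-35284747, minus strand): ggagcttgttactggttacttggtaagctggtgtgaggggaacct
EIF5A2 (chr3:170908623-170908667, minus strand): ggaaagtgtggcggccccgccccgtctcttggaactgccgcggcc

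With mutation 1, the mRNAs for EIF1, EIF2A, EIF2S3, EIF4A2 and EIF4B were higher than with wild-type Dicer, and those for EIF5, EIF2S1, EIF2S2, EIF2B1, EIF2B2, EIF3J and EIF6 were lower. By edgeR's quasi-likelihood test, at a Benjamini-Hochberg adjusted p under 0.05 over all 15094 genes tested, 18 of 46 members were higher, 18 were lower and 10 did not pass, where 69% of all genes passed (32.5% higher, 36.5% lower). With mutation 2, 10 members were higher, 17 were lower and 19 did not pass, where 37% of all genes passed (16.9% higher, 20.1% lower). With mutation 3, 15 were higher, 20 were lower and 11 did not pass, where 59.3% of all genes passed (28.1% higher, 31.2% lower). The 3 libraries of mutation 1 did not overlap the 3 of wild type in 36 members, where this held for 68% of all genes, those of mutation 2 in 27, beside 42.6%, and those of mutation 3 in 36, beside 61%. Without wild-type replicate 1, 22 members were higher and 20 lower with mutation 1, where 82.7% of all genes passed, 20 higher and 19 lower with mutation 2, where 67.9% passed, and 21 higher and 22 lower with mutation 3, where 77.1% passed. In fits that left out any other single library, 5 of the 36 members called with mutation 1 lost the call at least once, namely EIF2B4, EIF3D, EIF3F, EIF3G and EIF4H. With mutation 2, 8 of 27 did, namely EIF2B1, EIF2S3, EIF3D, EIF3L, EIF4A2, EIF4A3, EIF4H and EIF5B. With mutation 3, 6 of 35 did, namely EIF2B4, EIF3F, EIF3M, EIF4A1, EIF4G3 and EIF4H. Fitting only the 2 groups compared lost more calls, where 58.4%, 18.5% and 46.6% of all genes passed with mutations 1, 2 and 3. The 8 with mutation 1 were EIF2B4, EIF2B5, EIF3D, EIF3F, EIF3G, EIF3H, EIF3M and EIF4H. The 15 with mutation 2 were EIF1B, EIF2B1, EIF2S3, EIF3B, EIF3D, EIF3J, EIF3K, EIF3L, EIF4A2, EIF4A3, EIF4B, EIF4G3, EIF4H, EIF5 and EIF5B. The 12 with mutation 3 were EIF2B4, EIF2B5, EIF2S3, EIF3D, EIF3F, EIF3H, EIF3M, EIF4A1, EIF4A3, EIF4E2, EIF4G3 and EIF4H. Scaling by library totals in place of TMM shifted the median log2 fold change of all genes to -0.25 with mutation 1 and -0.14 with mutation 3, and the split of the members to 11 higher and 22 lower with mutation 1 and 9 higher and 21 lower with mutation 3. Of all genes 68.9% then passed with mutation 1 and 59.2% with mutation 3. Changes of at least 2-fold that passed numbered 13 members with mutation 1, where 35.1% of all genes did so, 2 with mutation 2, where 9.49% did so, and 6 with mutation 3, where 24% did so.

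Nearly every member differed somewhere among the 4 groups, as did most genes tested. The members' median fold change against wild type lay close to that of all genes, while their share of library totals was lower with mutations 1 and 3. In an F test among the groups 43 of 46 members passed, where 83% of all genes did, and the 3 that did not were EIF3C, EIF3I and EIF5A2. The median log2 fold change of the members against wild type was -0.02 for mutation 1, beside -0.04 over all genes. It was 0.05 for mutation 2, beside -0.01, and -0.09 for mutation 3, beside -0.01. All members together took 0.921% ± 0.009 of a library's counts with mutation 1, 1.03% ± 0.002 with mutation 2, 0.876% ± 0.009 with mutation 3 and 1.01% ± 0.009 with wild type (SD, n = 3 each). The libraries of each mutation lay wholly on one side of the wild-type libraries in this share, and the exact two-sided permutation p was 0.1 for each mutation, the smallest that 3 against 3 libraries can give. The share was taken of library totals without TMM scaling. The TMM factors were 0.912 to 0.919 with mutation 1 and 1.05 to 1.08 with wild type. Divided by these factors, the mutation 1 shares lie above the wild-type shares, so the direction for mutation 1 depends on the scaling. The mutation 3 shares, with factors of 0.972 to 0.978, still lie below the wild-type shares after the same division.

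**Figure D1:**
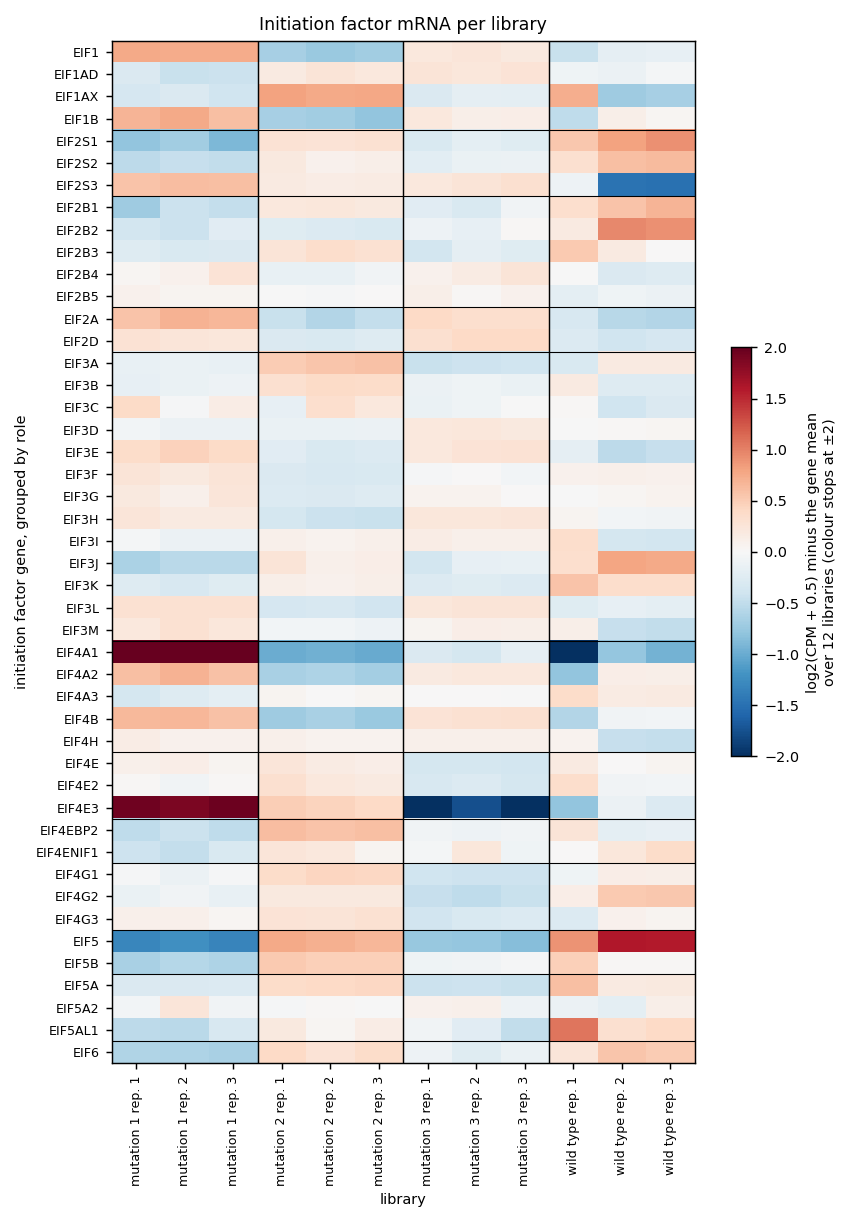
Levels of the 46 tested initiation factor mRNAs (rows, grouped by role) in the 12 libraries (columns), as log2(CPM + 0.5) minus the gene's mean over all libraries, with the colour stopping at 2 in either direction. The libraries of each mutation look alike, while wild-type replicate 1 differs from replicates 2 and 3 for genes such as EIF1AX, EIF2S3 and EIF4A2.

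EIF1, the factor that keeps the scanning ribosome from accepting a wrong start codon (chr17:41688885-41692668 on hg38), was at 1229, 1213 and 1210 CPM with mutation 1, 459, 434 and 448 with mutation 2, 842, 859 and 834 with mutation 3, and 531, 641 and 646 with wild type. CPM are counts scaled to library size with TMM factors. The 4 groups did not overlap, with mutation 1 highest and mutation 2 lowest. EIF1 rose with mutation 1 (log2 fold change 1.01 ± 0.07 SE, adjusted p = 5.13e-07) and mutation 3 (0.48 ± 0.07, adjusted p = 0.000206) and fell with mutation 2 (-0.44 ± 0.07, adjusted p = 0.00097). Its paralogue EIF1B was at 47.8, 50.4 and 45.1 CPM with mutation 1, 18.7, 18.1 and 17.0 with mutation 2, 34.4, 32.3 and 32.7 with mutation 3, and 20.7, 32.3 and 30.4 with wild type. EIF1B followed the order of EIF1 among the mutations, but wild-type replicate 1 lay nearer to mutation 2 than to its own group. It rose with mutation 1 (log2 fold change 0.78 ± 0.14, adjusted p = 0.000403) and fell with mutation 2 (-0.64 ± 0.14, adjusted p = 0.00459), a call lost against wild-type replicate 1 alone (-0.22), and did not pass with mutation 3 (0.25 ± 0.14, adjusted p = 0.133), where it passed against replicate 1 alone (0.67).

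EIF1AX encodes eIF1A, which works with eIF1 in scanning (chrX:20124518-20141844), and has a near-identical copy on the Y chromosome, EIF1AY, so its level is uncertain. Its mRNA was at 97.1, 101 and 92.5 CPM with mutation 1, 213, 207 and 211 with mutation 2, 100, 108 and 107 with mutation 3, and 204, 74.4 and 76.7 with wild type. Mutation 2 was about level with wild-type replicate 1 and well above every other library. No mutation passed against the 3 wild-type libraries, with log2 fold changes of -0.29 for mutation 1, 0.83 for mutation 2 and -0.17 for mutation 3. Without replicate 1 these became 0.36, 1.48 and 0.48, and all passed. Against replicate 1 alone mutation 1 (-1.09) and mutation 3 (-0.96) lay in the other direction, and mutation 2 was at 0.04. EIF1AD, a nuclear protein with an eIF1A-like domain, was at 35.0, 31.1 and 31.5 CPM with mutation 1, 48.7, 50.9 and 49.6 with mutation 2, 51.3, 50.3 and 51.6 with mutation 3, and 40.3, 39.2 and 41.8 with wild type. It was lower with mutation 1 (log2 fold change -0.31 ± 0.06) and higher with mutation 2 (0.30 ± 0.06) and mutation 3 (0.34 ± 0.06), and wild-type replicate 1 lay within its group.

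The genes of the eIF2 complex did not move together. EIF2S1 encodes the alpha subunit, the one phosphorylated by the stress kinases (chr14:67359997-67386516). It was at 47.1, 50.4 and 43.7 CPM with mutation 1, 101, 99.6 and 102 with mutation 2, 66.4, 71.4 and 69.4 with mutation 3, and 120, 143 and 155 with wild type. All mutant libraries were below all wild-type libraries, and mutation 1 was lowest. The log2 fold change was -1.56 ± 0.09 for mutation 1 (adjusted p = 1.05e-07), -0.47 ± 0.09 for mutation 2 (adjusted p = 0.00221) and -1.01 ± 0.09 for mutation 3 (adjusted p = 4.43e-06). EIF2S2, the beta subunit (chr20:34088298-34112332), was at 205, 213 and 211 CPM with mutation 1, 339, 312 and 320 with mutation 2, 255, 269 and 272 with mutation 3, and 367, 447 and 457 with wild type. It had the same order of groups as EIF2S1, again without overlap, and its log2 fold changes were -1.01 ± 0.08, -0.39 ± 0.08 and -0.67 ± 0.08 for mutations 1, 2 and 3, all past the threshold.

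EIF2S3, the gamma subunit that binds GTP and the initiator tRNA (chrX:24054716-24077971), went the other way. Its mRNA was at 348, 360 and 356 CPM with mutation 1, 267, 260 and 263 with mutation 2, 273, 281 and 294 with mutation 3, and 220, 83.9 and 83.0 with wild type. The mutant libraries were above all wild-type libraries, but wild-type replicate 1 was much nearer to them than replicates 2 and 3. The log2 fold change was 1.46 ± 0.30 for mutation 1 (adjusted p = 0.00141), 1.03 ± 0.30 for mutation 2 (adjusted p = 0.0212) and 1.13 ± 0.30 for mutation 3 (adjusted p = 0.00778). Without replicate 1 it was 2.09, 1.66 and 1.77, and against replicate 1 alone 0.68, 0.25 and 0.35, and it passed each time. The call for mutation 2 was lost, at values of 0.79 to 1.04, when a mutation 2 library or wild-type replicate 2 or 3 was left out. Its near-identical copy EIF2S3B had 0 to 7 counts in a library, so a split of reads between them remains uncertain.

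Of the 5 eIF2B subunits, which exchange GDP for GTP on eIF2, EIF2B1, EIF2B2 and EIF2B3 were lower with mutation 1 and mutation 3, and EIF2B4 and EIF2B5 were slightly higher with both. EIF2B1, the alpha subunit, was at 30.7, 37.7 and 36.5 CPM with mutation 1, 58.8, 59.6 and 58.4 with mutation 2, 43.5, 41.3 and 48.7 with mutation 3, and 64.1, 75.9 and 81.8 with wild type. It fell with each mutation, by 1.08, 0.33 and 0.73 on the log2 scale for mutations 1, 2 and 3, and the call for mutation 2 was lost against wild-type replicate 1 alone (-0.13). EIF2B2, the beta subunit, was at 25.5, 24.4 and 28.1 CPM with mutation 1, 27.8, 27.3 and 26.7 with mutation 2, 30.8, 29.3 and 33.7 with mutation 3, and 37.5, 65.1 and 62.7 with wild type. The 3 mutations lay close together below wild type, at log2 fold changes of -1.08 ± 0.17, -1.01 ± 0.17 and -0.82 ± 0.17. Exons of other genes cover 15.6% of the exonic bases of EIF2B1 and 23.6% of those of EIF2B2, and reads there are left out or cannot be told apart. EIF2B3 fell by 0.54 with mutation 1 and by 0.52 with mutation 3, and at 0.06 did not pass with mutation 2. With mutation 2 it passed upward without wild-type replicate 1 (0.22) and downward against it alone (-0.22). EIF2B4 rose by 0.32 with mutation 1 and 0.35 with mutation 3, and neither call held against wild-type replicate 1 alone (0.12 and 0.16). With mutation 2 it passed without replicate 1 only (0.16). EIF2B5 was higher with mutation 1 by 0.20, a direction that turned with library totals in place of TMM scaling (-0.02), and with mutation 3 by 0.21. With mutation 2 EIF2B5 passed against wild-type replicate 1 alone (0.18).

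EIF2A and EIF2D encode factors that deliver initiator tRNA without the eIF2 complex on some mRNAs. EIF2A (chr3:150546678-150584242) was at 156, 170 and 165 CPM with mutation 1, 76.3, 69.3 and 74.7 with mutation 2, 137, 133 and 132 with mutation 3, and 83.5, 71.2 and 69.3 with wild type. EIF2D (chr1:206571292-206612463) was at 96.9, 94.5 and 93.3 CPM with mutation 1, 65.1, 64.0 and 66.2 with mutation 2, 100, 105 and 105 with mutation 3, and 65.5, 60.3 and 62.6 with wild type. For both genes mutations 1 and 3 lay above wild type in every library, and mutation 2 overlapped wild type, below which EIF2A passed against replicate 1 alone (-0.19). EIF2A rose by 1.13 ± 0.08 with mutation 1 (adjusted p = 3.16e-07) and 0.84 ± 0.08 with mutation 3 (adjusted p = 5.16e-06), and EIF2D by 0.60 ± 0.05 (adjusted p = 1.87e-06) and 0.72 ± 0.05 (adjusted p = 9.14e-07).

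**Figure D2:**
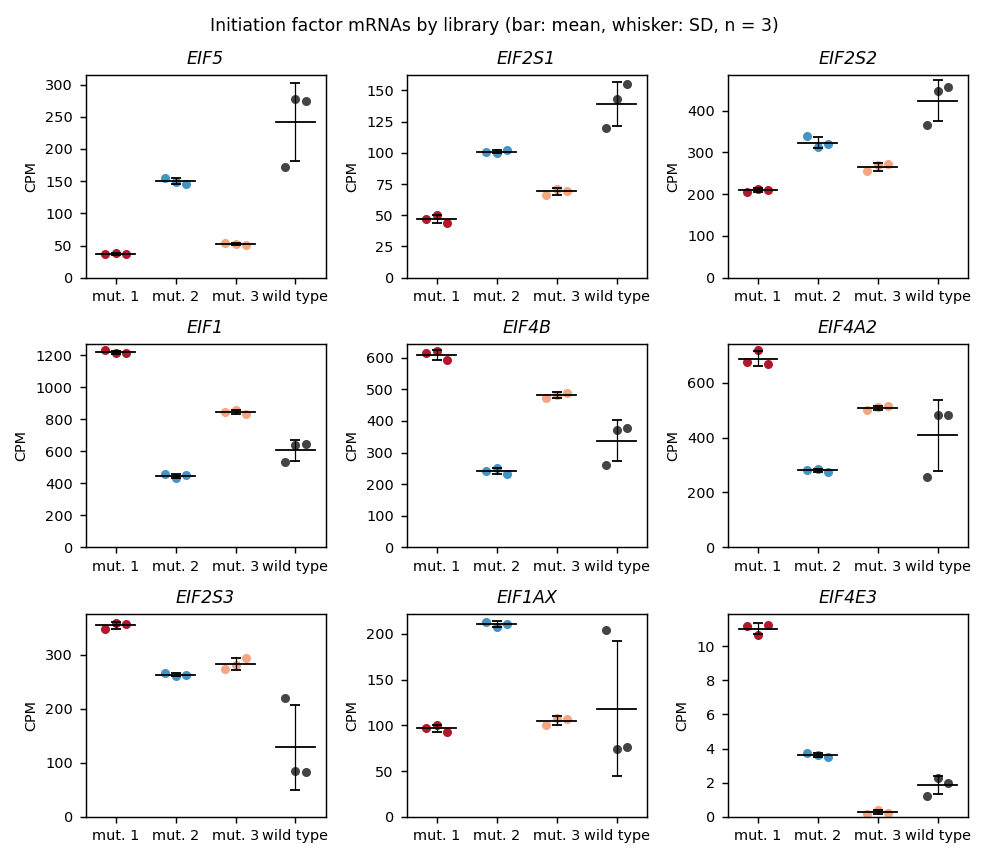
CPM of selected initiation factor mRNAs in each library (points), with the mean (bar) and SD (whisker) of 3 libraries, from mutation 1 at the left to wild type at the right. EIF5, EIF2S1 and EIF2S2 are lowest with mutation 1, EIF1, EIF4B and EIF4A2 are highest with it, and the left-most wild-type point, replicate 1, lies apart for EIF2S3, EIF1AX and EIF4A2.

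eIF3 is the large scaffold that holds the small subunit and the mRNA together. Of the 13 subunit genes tested, 6 were higher and 3 lower with mutation 1, 2 higher and 7 lower with mutation 2, and 5 higher and 4 lower with mutation 3. Among all genes 32.5% were higher and 36.5% lower with mutation 1. For mutation 2 these shares were 16.9% and 20.1%, and for mutation 3 they were 28.1% and 31.2%. Per kilobase of exon, the subunits lay within a range of 12.8 to 146 CPM per kb with mutation 1, from EIF3J to EIF3I, apart from EIF3C at 1.52. EIF3C shares its sequence with EIF3CL, so pairs that fit both are left out and its level is uncertain. EIF3C passed with no mutation against the 3 wild-type libraries. Without replicate 1 it was higher with all, by 0.55, 0.53 and 0.29 for mutations 1, 2 and 3.

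EIF3A, the largest subunit (chr10:119033670-119080823), was at 416, 423 and 419 CPM with mutation 1, 660, 680 and 694 with mutation 2, 340, 348 and 353 with mutation 3, and 373, 526 and 524 with wild type. EIF3B, which with EIF3A forms the core, was at 402, 413 and 417 CPM with mutation 1, 563, 585 and 580 with mutation 2, 414, 423 and 410 with mutation 3, and 512, 377 and 377 with wild type. For both, mutation 2 was above every other library. EIF3A rose with mutation 2 (log2 fold change 0.52 ± 0.11, adjusted p = 0.0039), fell with mutation 3 (-0.45 ± 0.11, adjusted p = 0.00421) and did not pass with mutation 1 (-0.18 ± 0.11, adjusted p = 0.165). With mutation 1 EIF3A passed as lower without wild-type replicate 1 (-0.32) and as higher against it alone (0.16). EIF3B rose with mutation 2 (0.45 ± 0.10, adjusted p = 0.00604) and did not pass with mutation 1 (-0.04) or mutation 3 (-0.02). Both passed as higher without replicate 1 (0.13 and 0.15) and as lower against it alone (-0.33 and -0.31).

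EIF3J, a loosely bound subunit that acts near the mRNA entry channel (chr15:44537057-44563029), was at 38.8, 41.5 and 41.9 CPM with mutation 1, 73.1, 65.5 and 66.6 with mutation 2, 47.2, 54.4 and 55.0 with mutation 3, and 77.0, 105 and 103 with wild type. It was lowest with mutation 1 and below wild type with all mutations, at -1.22 ± 0.11, -0.48 ± 0.11 and -0.87 ± 0.11 for mutations 1, 2 and 3. EIF3K, a peripheral subunit that pairs with EIF3L, fell likewise, by 0.71 with mutation 1, 0.32 with mutation 2 and 0.70 with mutation 3. EIF3E, by contrast, was at 490, 522 and 495 CPM with mutation 1, 324, 308 and 314 with mutation 2, 442, 458 and 465 with mutation 3, and 335, 266 and 277 with wild type. It rose with mutation 1 (0.78 ± 0.08, adjusted p = 8.03e-06) and mutation 3 (0.64 ± 0.08, adjusted p = 5.82e-05) and overlapped wild type with mutation 2, where it passed without replicate 1 only (0.22). EIF3L rose by 0.50 with mutation 1 and 0.45 with mutation 3 and fell by 0.14 with mutation 2, or 0.11 against wild-type replicate 1 alone, which did not pass, and 51.8% of its exonic bases lie under exons of other genes.

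EIF3F, EIF3G and EIF3H fell with mutation 2, by 0.40, 0.31 and 0.39 on the log2 scale. With mutation 1 EIF3H rose by 0.23, EIF3F by 0.14 and EIF3G by 0.15, and under library totals the last pair turned to -0.07 each and EIF3H no longer passed (0.01). EIF3M rose by 0.50 with mutation 1 and by 0.34 with mutation 3. The mutation 3 value passed narrowly (adjusted p = 0.0456). It lost its call with library totals, with DESeq2, without the filter and when any library other than wild-type replicate 1 was left out. EIF3M also lost that call against wild-type replicate 1 alone (-0.04). With mutation 2 it passed as higher without that replicate (0.41) and as lower against it alone (-0.21). With mutation 3 EIF3H rose by 0.25, a call lost with library totals (0.13). EIF3F fell by 0.12 with mutation 3 and passed narrowly (adjusted p = 0.0438). That call was lost with RLE scaling, without the filter and when any library other than wild-type replicate 1 was left out. EIF3D was at -0.11 with mutation 1, -0.14 with mutation 2 and 0.19 with mutation 3. Its mutation 1 value passed narrowly (adjusted p = 0.0421) and lost its call with RLE scaling, with DESeq2, without the filter and when any library other than wild-type replicate 1 was left out. EIF3I was at 252 ± 8.64 CPM with mutation 1, 286 ± 2.80 with mutation 2, 291 ± 5.68 with mutation 3 and 253 ± 76.7 with wild type (SD, n = 3), and wild-type replicate 1 stood at 342 CPM beside 211 and 207 in the others. Without that replicate EIF3I was higher with all mutations, by 0.28, 0.46 and 0.48 for mutations 1, 2 and 3, and passed. Against that replicate alone it was lower with all of them, at -0.45, -0.27 and -0.24, and passed too.

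**Figure D3:**
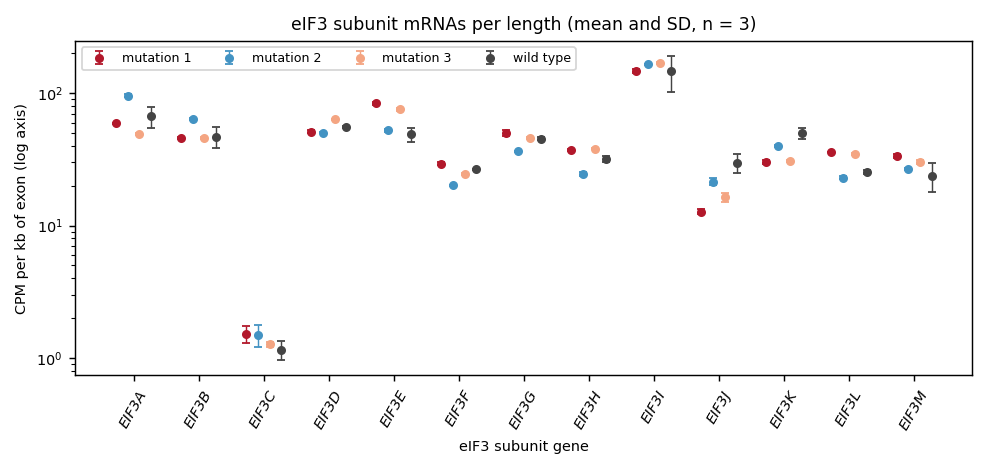
Level per length (CPM per kb of exon, log axis) of the 13 tested eIF3 subunit mRNAs, as mean and SD of 3 libraries for mutation 1, mutation 2, mutation 3 and wild type. Most subunits lie between the levels of EIF3J and EIF3I in every group, EIF3C is far below them, and the wild-type bar is the widest of the 4 for EIF3A, EIF3B, EIF3I and EIF3M.

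The eIF4A helicases unwind the mRNA leader, with EIF4B and EIF4H as their partners. EIF4A2 (chr3:186783205-186789900) was at 675, 718 and 668 CPM with mutation 1, 281, 287 and 276 with mutation 2, 502, 510 and 515 with mutation 3, and 258, 484 and 483 with wild type. Mutations 1 and 3 were above every wild-type library, and mutation 2 lay between wild-type replicate 1 and the other two. EIF4A2 rose with mutation 1 (log2 fold change 0.75 ± 0.19, adjusted p = 0.00399), or by 1.40 against replicate 1 alone, and did not pass with mutation 3 (0.32 ± 0.18). With mutation 3 it did pass both without replicate 1 (0.08) and against it alone (0.97). With mutation 2 it fell (-0.54 ± 0.18, adjusted p = 0.0423), a direction that turned against replicate 1 alone (0.12). That call was lost in 8 of the 11 fits that left out another library (-0.55 to -0.40). Exons of other genes cover 17.9% of the exonic bases of EIF4A2. EIF4B (chr12:53006158-53042209) was at 615, 620 and 592 CPM with mutation 1, 241, 251 and 233 with mutation 2, 473, 484 and 490 with mutation 3, and 262, 373 and 379 with wild type. Its groups did not overlap, and it rose with mutation 1 (0.85 ± 0.12, adjusted p = 6.75e-05) and mutation 3 (0.51 ± 0.12, adjusted p = 0.00283) and fell with mutation 2 (-0.48 ± 0.12, adjusted p = 0.00761).

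EIF4A1, usually the more abundant helicase, was at 80.8, 77.5 and 73.3 CPM with mutation 1, 5.56, 5.64 and 5.47 with mutation 2, 9.26, 8.89 and 10.1 with mutation 3, and 1.51, 6.48 and 5.76 with wild type. Mutation 1 was far above the rest, with a log2 fold change of 4.06 ± 0.35 (adjusted p = 1.96e-06), or 5.66 against wild-type replicate 1 alone. Mutation 3 was higher by 1.02 ± 0.34 (adjusted p = 0.0239), or 2.62 against that library alone, and mutation 2 did not pass (0.27 ± 0.35) except against that library alone (1.87). Exons of SENP3-EIF4A1, small nucleolar RNAs and another gene ID cover 48.6% of its exonic bases (chr17:7572706-7579005), and the recorded command leaves out pairs that match exons of more than a single gene. The deposited level is thus no measure of the whole transcript, and the part that this counting plays in the difference was not tested. EIF4A3, the helicase of the exon junction complex, was at 106, 113 and 118 CPM with mutation 1, 140, 135 and 140 with mutation 2, 137, 135 and 134 with mutation 3, and 175, 152 and 153 with wild type. All mutant libraries were below wild type, at -0.51 ± 0.07, -0.21 ± 0.07 and -0.24 ± 0.07 for mutations 1, 2 and 3. EIF4H was higher by 0.37, 0.34 and 0.36 with the 3 mutations, calls that were all lost against wild-type replicate 1 alone (0.02, -0.01 and 0.01).

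**Figure D4:**
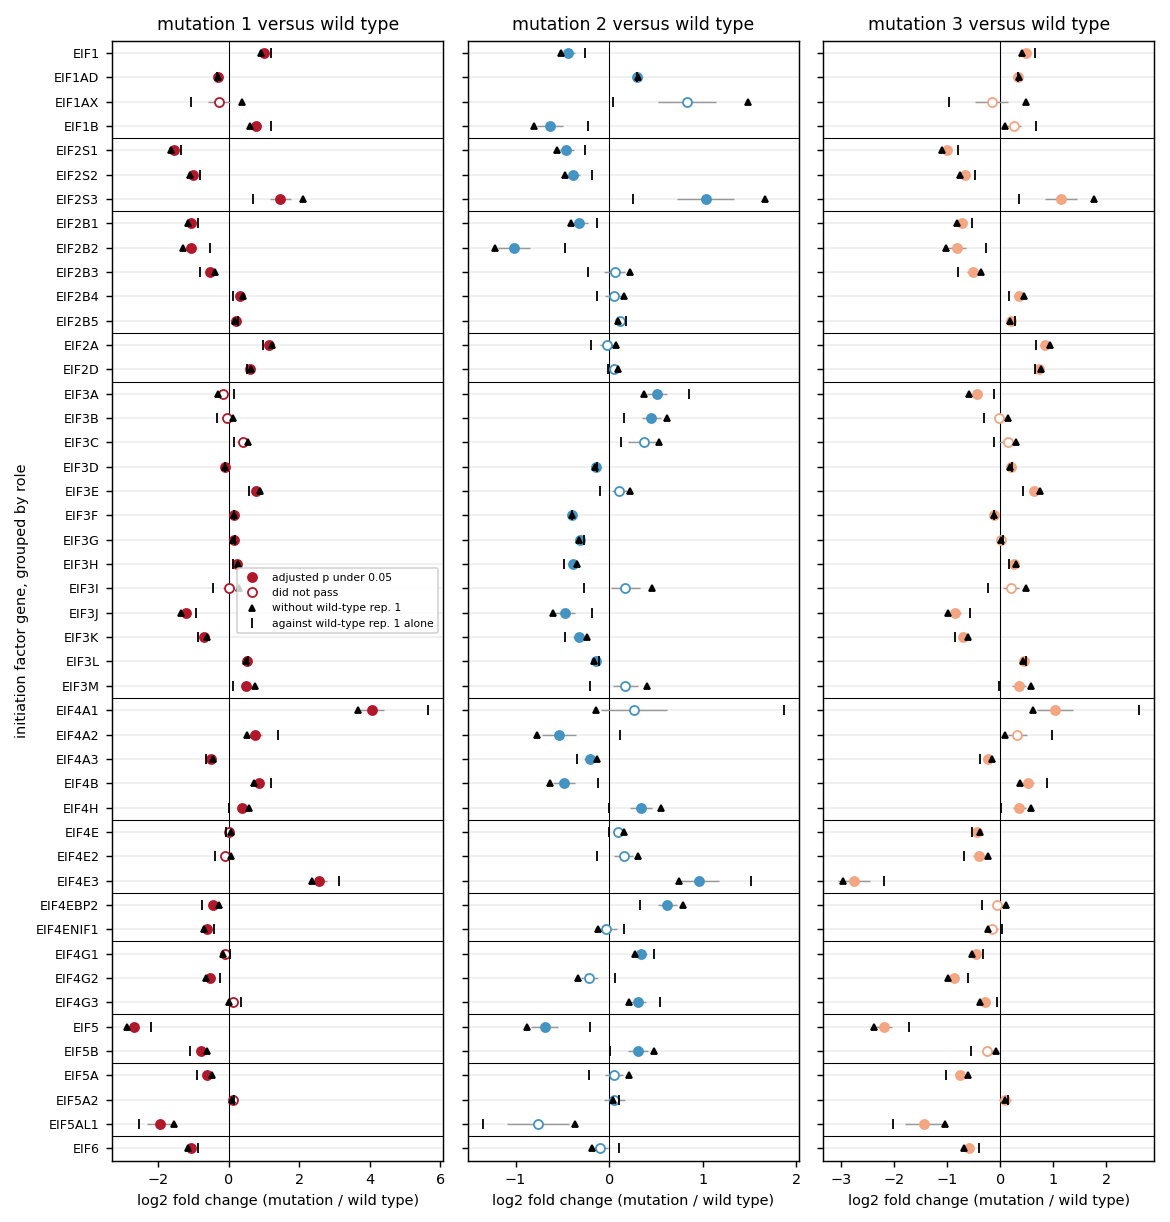
Log2 fold change of each tested member for mutation 1, mutation 2 and mutation 3 over wild type (circles, filled where the adjusted p was under 0.05, with SE bars), with the value without wild-type replicate 1 (triangles) and against it alone (ticks). EIF4A1 and EIF4E3 lie farthest to the right with mutation 1, EIF5 far to the left with mutations 1 and 3, and triangles and ticks part most for EIF1AX, EIF2S3 and EIF4A1.

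The cap-binding protein gene EIF4E was at 65.8, 67.5 and 63.6 CPM with mutation 1, 72.4, 68.5 and 67.6 with mutation 2, 48.2, 48.2 and 47.4 with mutation 3, and 69.3, 61.6 and 63.7 with wild type. Only the mutation 3 libraries stood off from wild type, below it, and EIF4E fell with mutation 3 (log2 fold change -0.44 ± 0.06, adjusted p = 8.89e-05) and did not pass with mutation 1 (0.02) or mutation 2 (0.10), which passed without wild-type replicate 1 (0.15). EIF4E2, a cap binder that represses translation, was at 67.0, 62.4 and 66.9 CPM with mutation 1, 82.5, 76.2 and 74.8 with mutation 2, 52.5, 54.4 and 51.5 with mutation 3, and 84.3, 62.5 and 63.0 with wild type. Exons of other genes cover 24.2% of its exonic bases. EIF4E2 too was lowest with mutation 3 (-0.41 ± 0.10, adjusted p = 0.00658) and did not pass with the others. Mutation 1 passed as lower against wild-type replicate 1 alone (-0.38), and mutation 2 as higher without it (0.31).

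EIF4E3, a further cap-binding family member (chr3:71675416-71754773), was at 11.2, 10.7 and 11.3 CPM with mutation 1, 3.73, 3.63 and 3.50 with mutation 2, 0.188, 0.392 and 0.222 with mutation 3, and 1.25, 2.29 and 2.01 with wild type. The 4 groups did not overlap, and the mutation 3 libraries held only 3, 6 and 3 counts. It rose with mutation 1 (log2 fold change 2.57 ± 0.21, adjusted p = 1.51e-06) and mutation 2 (0.96 ± 0.22, adjusted p = 0.00578) and fell with mutation 3 (-2.76 ± 0.30, adjusted p = 2.18e-05). From the summed counts, 12 with mutation 3 and 91 with wild type, the scaled ratio of mutation 3 to wild type was 0.143, with an exact 95% interval of 0.0713 to 0.262 that covers counting error only.

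EIF4EBP2, a binding protein that keeps eIF4E from eIF4G until mTOR phosphorylates it, was at 78.4, 82.7 and 78.7 CPM with mutation 1, 172, 167 and 169 with mutation 2, 106, 104 and 106 with mutation 3, and 134, 97.2 and 99.5 with wild type. It was lower with mutation 1 (log2 fold change -0.46 ± 0.10, adjusted p = 0.00213), higher with mutation 2 (0.62 ± 0.10, adjusted p = 0.000982) and did not pass with mutation 3 (-0.06 ± 0.10), where wild type overlapped. The mutation 3 value passed as higher without replicate 1 (0.11) and as lower against it alone (-0.35). EIF4ENIF1, which carries eIF4E into the nucleus, fell with mutation 1 by 0.63. With mutation 3 EIF4ENIF1 passed without wild-type replicate 1 only (-0.24).

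EIF4G1, the main scaffold of eIF4F (chr3:184314495-184335358), was at 854, 804 and 856 CPM with mutation 1, 1117, 1163 and 1157 with mutation 2, 657, 652 and 652 with mutation 3, and 815, 953 and 944 with wild type. EIF4G3, its paralogue, was at 114, 114 and 109 CPM with mutation 1, 128, 127 and 131 with mutation 2, 81.2, 85.6 and 88.1 with mutation 3, and 87.7, 113 and 110 with wild type. In both genes mutation 2 was highest, mutation 3 lowest and mutation 1 overlapped wild type, and for EIF4G3 a single mutation 3 library lay above wild-type replicate 1. EIF4G1 rose with mutation 2 (log2 fold change 0.34 ± 0.07, adjusted p = 0.00224) and fell with mutation 3 (-0.47 ± 0.07, adjusted p = 0.000119), and EIF4G3 rose with mutation 2 (0.31 ± 0.08, adjusted p = 0.015) and fell with mutation 3 (-0.29 ± 0.09, adjusted p = 0.0138), which was lost against wild-type replicate 1 alone (-0.06). With mutation 1 EIF4G1 passed without replicate 1 (-0.17) and EIF4G3 against it alone (0.35). EIF4G2, a scaffold that lacks the eIF4E-binding region, was at 631, 662 and 629 CPM with mutation 1, 793, 795 and 798 with mutation 2, 502, 490 and 508 with mutation 3, and 758, 998 and 1007 with wild type. It fell with mutation 1 (-0.52 ± 0.09, adjusted p = 0.000473) and mutation 3 (-0.88 ± 0.09, adjusted p = 1.71e-05), and mutation 2 overlapped wild type and did not pass (-0.21 ± 0.09) except without replicate 1 (-0.33).

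EIF5, which stimulates GTP hydrolysis by eIF2 at the start codon (chr14:103333544-103345025), had the largest fall of all members with mutation 1. It was at 36.4, 38.7 and 36.3 CPM with mutation 1, 155, 149 and 145 with mutation 2, 53.6, 53.0 and 50.5 with mutation 3, and 171, 278 and 275 with wild type. All mutant libraries were below all wild-type libraries, those of mutation 1 and mutation 3 far below. The log2 fold change was -2.70 ± 0.16 with mutation 1 (6.50-fold lower, adjusted p = 1.06e-07), -0.69 ± 0.15 with mutation 2 (adjusted p = 0.0042) and -2.20 ± 0.15 with mutation 3 (4.61-fold lower, adjusted p = 8.26e-07). Against wild-type replicate 1 alone the values were -2.22, -0.20 and -1.72. The call for mutation 2 was lost when only the 2 groups compared were fitted (-0.66). EIF5B, which joins the large subunit (chr2:99337353-99401326), was at 138, 145 and 140 CPM with mutation 1, 310, 300 and 299 with mutation 2, 203, 205 and 211 with mutation 3, and 300, 218 and 218 with wild type. It fell with mutation 1 (-0.80 ± 0.11, adjusted p = 6.08e-05), rose with mutation 2 (0.31 ± 0.11, adjusted p = 0.0437), a call lost against replicate 1 alone (0.01) and when any other library was left out (0.22 to 0.32), and did not pass with mutation 3 (-0.25 ± 0.11). With mutation 3 EIF5B passed without replicate 1 (-0.08) and against it alone (-0.55).

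EIF5A, which relieves stalled ribosomes and carries the hypusine residue, was at 383, 382 and 389 CPM with mutation 1, 603, 617 and 626 with mutation 2, 349, 354 and 345 with mutation 3, and 709, 533 and 536 with wild type. It fell with mutation 1 (log2 fold change -0.62 ± 0.10, adjusted p = 0.000162) and mutation 3 (-0.76 ± 0.10, adjusted p = 5.65e-05), and mutation 2 lay within the wild-type range (0.05 ± 0.10). It passed there as higher without replicate 1 (0.21) and as lower against it alone (-0.21). Its paralogue EIF5A2 was at 25.2, 31.0 and 24.8 CPM with mutation 1, 25.6, 26.6 and 26.0 with mutation 2, 27.6, 28.0 and 24.2 with mutation 3, and 24.2, 22.8 and 28.3 with wild type. All groups overlapped, and its log2 fold changes were 0.11, 0.06 and 0.09, each ± 0.11. EIF5AL1, a near-identical copy of EIF5A, had 4, 4 and 5 counts with mutation 1, 11, 10 and 13 with mutation 2, 9, 7 and 4 with mutation 3, and 28, 16 and 15 with wild type. It was lower with mutation 1 (-1.94 ± 0.39, adjusted p = 0.00101) and mutation 3 (-1.45 ± 0.36, adjusted p = 0.0051). With mutation 2 EIF5AL1 passed against wild-type replicate 1 alone (-1.35). Reads shared with EIF5A make these values uncertain. EIF6, which keeps the ribosomal subunits apart, fell with mutation 1 by 1.07 ± 0.08 (adjusted p = 9.31e-07) and with mutation 3 by 0.60 ± 0.08 (adjusted p = 0.000113), and at -0.09 did not pass with mutation 2. Without replicate 1 the mutation 2 value passed (-0.18). Exons of another gene cover 17.4% of the exonic bases of EIF6.

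Set against each other, the mutations differed in many members. Mutation 1 against mutation 2 had 14 members higher and 20 lower, where 65.4% of all genes passed (31.8% higher, 33.6% lower), and 13 of these changes were at least 2-fold, as were those of 32.7% of all genes. EIF4A1 (log2 fold change 3.79 ± 0.34), EIF4E3 (1.61 ± 0.20) and EIF1 (1.45 ± 0.07) were the highest with mutation 1, and EIF5 (-2.01 ± 0.15), EIF5AL1 (-1.18 ± 0.41) and EIF1AX (-1.12 ± 0.31) the lowest. Mutation 1 against mutation 3 had 12 members higher and 12 lower, where 42.8% of all genes passed (20.2% higher, 22.5% lower). EIF4E3 (5.32 ± 0.28) and EIF4A1 (3.04 ± 0.33) were the 2 members that passed with at least 2-fold, beside 14% of all genes. The scaled ratio of EIF4E3 counts between them was 41.1, with an exact 95% interval of 23.3 to 80.2. The lowest there was EIF1AD (-0.65 ± 0.06). Without wild-type replicate 1, whose spread enters the shared fit, 20 members were higher and 16 lower in mutation 1 against mutation 3, where 66.6% of all genes passed. Without mutation 1 replicate 1, 7 members were lower. The share of all genes that passed in that fit is not given, so the lower count cannot be set beside it. Mutation 2 against mutation 3 had 20 members higher and 13 lower, where 52.9% of all genes passed (27.2% higher, 25.7% lower), 2 of them at least 2-fold, beside 18.8% of all genes. The libraries did not overlap in 41 members for mutation 1 against mutation 2, 35 for mutation 1 against mutation 3 and 39 for mutation 2 against mutation 3, beside 81.6%, 69.8% and 75.9% of all genes. EIF4E3 (3.71 ± 0.29), EIF5 (1.52 ± 0.15) and EIF1AX (1.00 ± 0.31) were the highest with mutation 2, and EIF4B (-0.996 ± 0.12), EIF1 (-0.92 ± 0.07) and EIF1B (-0.89 ± 0.14) the lowest. All 3 eIF4G genes and all 3 tested cap-binding genes were lower with mutation 3 than with either of the other mutations.

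Returning to the transcript starts printed above, 40 of the tested members were in the RefSeq table and 9 of them (22.5%) had a listed start with a tract of a C and at least 4 pyrimidines, read on the transcript's strand. The same tract stood at a start of 7.22% of all tested genes in the table and at 4.07% of its 35116 starts. The 9 were EIF2A, EIF2D, EIF2S3, EIF3D, EIF3F, EIF3K, EIF3M, EIF4A2 and EIF4B. The shares of all genes tested were 32.5% higher and 36.5% lower with mutation 1, 16.9% higher and 20.1% lower with mutation 2, and 28.1% higher and 31.2% lower with mutation 3. With mutation 1, 7 of the 9 were higher and 2 lower, with a median log2 fold change of 0.60, and of the 31 without a tract 7 were higher and 15 lower, with a median of -0.29. Some of these calls depend on the scaling. With library totals in place of TMM scaling EIF3F turned to -0.07 and EIF3M no longer passed (0.28), as EIF2B5 turned among those without a tract (-0.02). The lower call of EIF3D was lost with RLE scaling and with DESeq2. With mutation 2, 1 of the 9 was higher and 5 lower (median -0.14), and of the 31, 8 were higher and 8 lower (median 0.06). With mutation 3, 6 of the 9 were higher and 2 lower (median 0.34), and of the 31, 6 were higher and 16 lower (median -0.25). The tract was looked at after the members' values were known, so these counts are a description without a test, and a match in the letters is not a shown site of control. EIF3K, with a tract, was among the lower genes with every mutation, and EIF1, without it, had the order of groups seen for EIF4B.

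**Figure D5:**
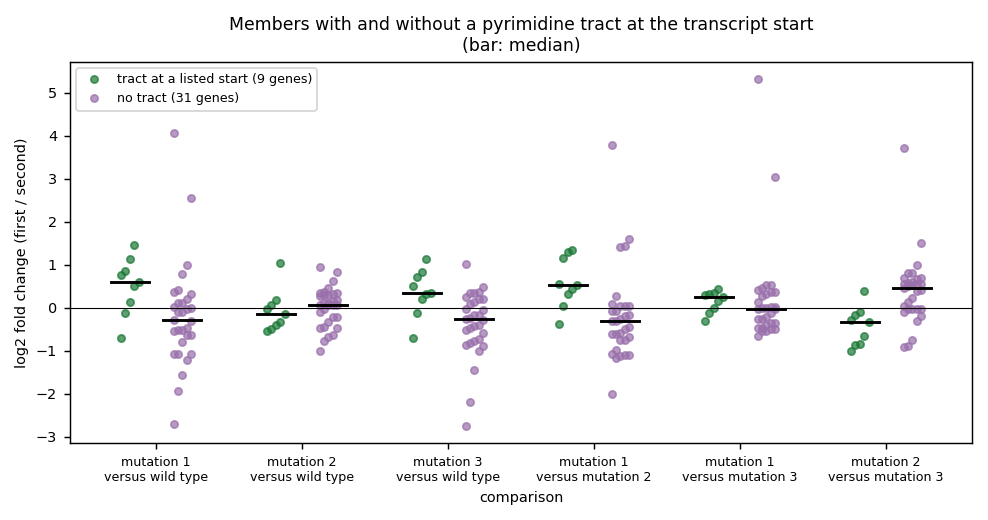
Log2 fold change (first over second group) in 6 comparisons for the 9 members with a pyrimidine tract at a listed transcript start (green) and the 31 without (purple), with the median of each as a bar. The green median lies above the purple for mutation 1 and mutation 3 over wild type (0.60 and 0.34 against -0.29 and -0.25) and below it for mutation 2 over wild type (-0.14 against 0.06).

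Other genes of translation were taken from 6 lists of 58 genes, and their counts stand beside the 69%, 37% and 59.3% of all genes that passed with mutations 1, 2 and 3. Several of them lie near those shares. Among the 8 genes for the eIF2 kinases, their regulators GCN1 and IMPACT and the eIF2 phosphatase subunits, 7 were higher and 1 lower with mutation 1, 3 were higher and 5 did not pass with mutation 2, and 4 were higher and 4 did not pass with mutation 3. EIF2AK1, the haem-regulated eIF2 kinase, was at 267 ± 9.66 CPM with mutation 1 and 150 ± 24.2 with wild type (log2 fold change 0.83), and PPP1R15B, a phosphatase subunit that removes the phosphate from eIF2 alpha, was at 134 ± 1.70 CPM with mutation 1 and 69.8 ± 12.8 with wild type (0.94). Among 11 genes of mTOR and MNK control, 3 were higher and 4 lower with mutation 1, 2 and 2 with mutation 2, and 3 and 3 with mutation 3. RPS6KB1, the kinase of ribosomal protein S6 downstream of mTOR, was at 20.6 ± 0.369 CPM with mutation 1 and 39.4 ± 0.577 with wild type (-0.94). MKNK2, a kinase that phosphorylates eIF4E, was at 239 ± 2.71 CPM with mutation 1, 231 ± 2.54 with mutation 3 and 95.03 ± 9.94 with wild type. LARP1 was at 400 ± 6.97 CPM with mutation 2 and 253 ± 20.0 with wild type (log2 fold change 0.66).

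Among 12 genes that act at the mRNA ends or on the scanning complex, 8 were higher and 3 lower with mutation 1, 4 were higher and 8 did not pass with mutation 2, and 6 higher and 2 lower with mutation 3. PABPC1, the poly(A)-binding protein, was at 2326 ± 25.5 CPM with mutation 1 and 1287 ± 140 with wild type, and NCBP1, of the nuclear cap-binding complex, at 24.5 ± 0.437 with mutation 1 and 67.8 ± 3.27 with wild type. Of the 8 recycling and alternative initiation genes, 2 were higher and 4 lower with mutation 1, 2 and 2 with mutation 2, and 2 and 4 with mutation 3. LTN1, a ubiquitin ligase that acts on stalled ribosomes, was at 75.97 ± 5.15 CPM with mutation 1, 43.4 ± 1.69 with mutation 2, 59.7 ± 2.18 with mutation 3 and 25.0 ± 4.17 with wild type, and passed as higher with each. DENR, which like EIF2D acts in recycling, was at 77.6 ± 2.16 CPM with mutation 1 and 144 ± 12.1 with wild type. Of 11 tested elongation genes, 5 were higher and 5 lower with mutation 1, 2 were lower and 9 did not pass with mutation 2, and 6 were higher and 5 lower with mutation 3. The elongation factor gene EEF2 was at 3248 ± 113 CPM with mutation 1, 2577 ± 59.4 with mutation 3 and 1808 ± 48.7 with wild type. EEF1A1, the factor that brings tRNA to the ribosome, was at 18860 ± 416 CPM with mutation 1 and 8461 ± 1338 with wild type. Of 7 termination genes 5 were lower and 2 did not pass with mutation 1, 2 were higher and 2 lower with mutation 2, and 4 were lower and 3 did not pass with mutation 3. MTRFR, a mitochondrial rescue factor, was at 7.999 ± 1.36 CPM with mutation 1 and 45.6 ± 4.91 with wild type (-2.51). GSPT1, which encodes the release factor eRF3, was at 111 ± 0.197 CPM with mutation 1 and 166 ± 5.45 with wild type (all SD, n = 3). With mutation 1 the median log2 fold change was 0.47 over the eIF2 kinase list, -0.17 over the mTOR list, 0.62 over the mRNA end list, -0.30 over the recycling list, -0.16 over the elongation list and -0.54 over the termination list, beside -0.04 over all genes. Without wild-type replicate 1, 67.9% of all genes passed with mutation 2 and 77.1% with mutation 3. The counts with mutation 2 then became 6 higher and 2 lower for the eIF2 kinase list, 5 and 2 for the mTOR list, 6 and 1 for the mRNA end list and 2 and 5 for the elongation list. Mutation 2 also gave 3 and 2 for the recycling list and 3 and 3 for the termination list. With mutation 3 the counts became 4 and 1 for the eIF2 kinase list and 5 and 5 for the mTOR list. Its mRNA end list had 8 and 3, and its recycling list 3 and 5. Its elongation list had 5 and 5, and its termination list 1 and 4. For mutation 1, 82.7% of all genes passed in this fit. Its counts became 4 and 5 for the mTOR list, 3 and 4 for the recycling list and 0 and 7 for the termination list. The remaining lists kept their mutation 1 counts. The 3 comparisons with wild type share the same wild-type libraries, so their values stand side by side and are not independent of each other. In such bulk samples fewer cells of a kind and less RNA per cell cannot be told apart.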

How the data were processed

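Poly(A) RNA-seq of 12 MDA-MB-231 libraries (3 per group) was analysed. Per library, the authors deposited a table of unnormalised counts (read pairs per gene) made with featureCounts 2.0.6 over exons of an hg38 Ensembl track, unstranded and with a minimum mapping quality of 10, per the file headers. Pairs that fit several places equally well, or exons of several genes, are therefore left out. STAR, SAMtools and DESeq2, without versions, and cutadapt 1.9.1 and FastQC 0.11.8 are further tools in the submitters' processing notes. Coordinates and exon lengths came from GENCODE v29. edgeR 4.0.16 (R 4.3.3) kept genes by filterByExpr (minimum 10 counts, total 15), scaled by TMM and fitted all 12 libraries as 4 groups with robust quasi-likelihood, and two-sided p-values were Benjamini-Hochberg adjusted over 15094 genes. Log2 fold changes are mutation over wild type with SE. Whether libraries are separate cultures is not in the labels, so the p-values speak only of the spread among these libraries, which may be technical. The replicate numbers of mutant libraries are only names. Named genes were all members, with values per library for the largest changes in each comparison and for small paralogue sets, and up to 2 genes per list with the lowest adjusted p. The members, roles, lists and tests were chosen with earlier results of these data known. The script was tested on simulated data in which no library stood apart, so that test does not cover a library such as wild-type replicate 1. Alternatives were RLE scaling, library totals, no filter, DESeq2 1.42.0, fits of 2 groups, leaving out each library, and wild-type replicate 1 alone. Transcript starts came from RefSeq's promoter table on GRCh38.p14 and were matched by symbol for 43 members. A marker among the lists is not reported here.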

Additional observations from a re-analysis of the deposited data

How the results depend on the processing

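No paired analysis was possible because the labels give replicate numbers to the wild-type libraries and none to the mutant libraries. Fitting only the 2 groups compared gave 11 members higher with mutation 1, 5 higher and 7 lower with mutation 2 and 7 higher with mutation 3, against wild type, and 20 higher in mutation 1 against mutation 3. In those fits 58.4%, 18.5% and 46.6% of all genes passed with mutations 1, 2 and 3, and 70.9% in mutation 1 against mutation 3. The same setting gave median log2 fold changes of -0.044 with mutation 1 and 0.07 with mutation 2. Without wild-type replicate 1, 20 members were higher with mutation 2 and 20 in mutation 1 against mutation 3, where 67.9% and 66.6% of all genes passed. Over all fits that left out 1 library, members higher ran from 7 to 20 with mutation 2 and from 9 to 20 in mutation 1 against mutation 3, where members lower ran from 7 to 16, and the medians ran from -0.094 to 0.087 with mutation 1, from -0.015 to 0.06 with mutation 2 and from -0.131 to 0.041 with mutation 3. In the pairs of mutations the medians ran from 0.001 to 0.034 in mutation 1 against mutation 3 and from 0.055 to 0.136 in mutation 2 against mutation 3. The share of all genes that passed is not given for each of these leave-one-out fits. Without wild-type replicate 1, all 36, 27 and 35 members called with mutations 1, 2 and 3 kept their call and direction, and against it alone 34, 21 and 31 did. Against it alone the medians were -0.036 with mutation 1 and -0.12 with mutation 2, and the members' share of library totals, without TMM scaling, differed from wild type by -0.103, 0.00534 and -0.149 percentage points with mutations 1, 2 and 3.

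Library totals in place of TMM scaling shifted the median of all genes to -0.25 with mutation 1 and -0.14 with mutation 3, and gave 11 higher and 22 lower members with mutation 1 and 9 higher and 21 lower with mutation 3, and 9 higher and 13 lower in mutation 1 against mutation 3. There 68.9% of all genes passed with mutation 1, 59.2% with mutation 3 and 43.2% in mutation 1 against mutation 3. The medians of the members were then -0.24 with mutation 1, -0.21 with mutation 3, -0.34 in mutation 1 against mutation 2, -0.091 in mutation 1 against mutation 3 and 0.20 in mutation 2 against mutation 3. With RLE scaling the medians were 0.013 with mutation 1, -0.099 in mutation 1 against mutation 2 and 0.032 in mutation 1 against mutation 3, and with DESeq2 they were 0.004, -0.105 and 0.032.

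Directions turned for these members, where the call was made in at least 1 of the fits. Under library totals with mutation 1, EIF2B5 was at -0.015, EIF3F at -0.073, EIF3G at -0.066 and EIF4E at -0.20, and in mutation 1 against mutation 2 EIF2B5 was at -0.13 and EIF3D at -0.18. Without wild-type replicate 1, EIF1AX was at 0.36, EIF3B at 0.13 and EIF3I at 0.28 with mutation 1, and EIF1AX at 0.48, EIF3B at 0.15 and EIF4EBP2 at 0.11 with mutation 3. Against that replicate alone, EIF3A was at 0.16 with mutation 1. EIF2B3 was then at -0.22, EIF3I at -0.27, EIF3M at -0.21, EIF4A2 at 0.12, EIF4H at -0.006 and EIF5A at -0.21 with mutation 2, and EIF3I at -0.24 and EIF3M at -0.036 with mutation 3. Over all fits that left out 1 library, EIF1AX ran from -0.539 to 0.365, EIF3B from -0.121 to 0.128 and EIF3I from -0.138 to 0.275 with mutation 1, and EIF1AX from -0.417 to 0.483, EIF3B from -0.102 to 0.146 and EIF4EBP2 from -0.148 to 0.105 with mutation 3. Where a call was lost when a library other than wild-type replicate 1 was left out, the values ran, with mutation 1, from 0.27 to 0.38 for EIF4H, 0.13 to 0.14 for EIF3F and 0.12 to 0.15 for EIF3G, and were 0.25 for EIF2B4. With mutation 2 they ran from -0.33 to -0.25 for EIF2B1, -0.15 to -0.12 for EIF3L, -0.21 to -0.19 for EIF4A3 and 0.24 to 0.35 for EIF4H. With mutation 3 they ran from -0.15 to -0.11 for EIF3F, 0.23 to 0.35 for EIF3M and 0.26 to 0.34 for EIF4H, and were 0.97 for EIF4A1, -0.22 for EIF4G3 and 0.30 for EIF2B4. The cause was not tested. Requiring a C and at least 6 pyrimidines left 7 members with a tract, with medians of 0.50 with mutation 1, -0.02 with mutation 2 and 0.34 with mutation 3, a setting chosen after seeing the data. The 33 members without such a tract had medians of -0.11, 0.06 and -0.24 with mutations 1, 2 and 3.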
